A study of Sus scrofa with 30 samples.

Results

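Pregnancy-associated glycoproteins are secreted relatives of pepsin made by the trophoblast of hoofed mammals, the outer layer of the embryo that meets the uterus. They belong to the aspartic proteases, enzymes that cut proteins with a pair of aspartate residues, and some members of the family have lost that activity. The genes lie side by side in a cluster, and in cattle the protein released into the mother's blood is used to detect pregnancy. In the pig they are known from the trophectoderm, the covering layer of the embryo, around the time at which the embryo elongates and attaches to the uterine lining.

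Among 13103 genes, the table of 30 pig embryos held 4 that the sources used here name as such: PAG6, LOC110259249, LOC100737419 and PPAG3. PAG6 and LOC110259249 were chosen by their rise from Day 10 to Day 12 in these same embryos, so their values in that interval are a description. The other members were added by name, PPAG3 (synonym PAG1) from the gene table and LOC100737419 from its description in the study's list of genes that differed between the sexes on Day 8. The sex difference of LOC100737419 on Day 8 is therefore also a description. The adapter gene that shares the symbol PAG1, on another chromosome, was not included.

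Each library came from 1 complete embryo, with embryonic disc and trophectoderm, of hormonally synchronized crossbred gilts inseminated with semen of 1 boar. Days 8, 10 and 12 after insemination were each sampled with 5 females and 5 males, named below by day, sex and number such as d12_f_245. The gilt of an embryo is not given, and littermates are not independent, so every p-value measures only the spread among these embryos. Counts per embryo ran from 6068212 (d12_f_245) to 34002508, and 3 counts, up to which a gene is read here as at background, correspond to 0.0823 to 0.434 CPM (counts scaled to library size with TMM factors). In RNA of a whole embryo, a change in the number of trophoblast cells and a change in the RNA of each cell cannot be told apart.

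All 4 genes lay on chromosome 2 of the Sscrofa11.1 assembly, in the order LOC110259249 (10280973 to 10290060), PAG6 (10311350 to 10386887), LOC100737419 (10452824 to 10461624) and PPAG3 (10474866 to 10482943). PAG6 spanned 75538 bp, against 9088, 8801 and 8078 bp for the other members in that order, and the gene table lists PAG2 and PAG10 as its synonyms. Between the pepsinogen gene PGA5 and VPS37C the table of counts held 8 further protein-coding loci that carry only an identifier, so that 12 loci formed an array of 319.8 kb. These 8 are described as neighbours and not counted as glycoproteins, since no source used here names them. They may still belong to the family. LOC100522849 (10340130 to 10349422) lay inside the span of PAG6. How reads that fit more than 1 copy were counted is not stated, so the division of reads among these loci is uncertain.

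Before Day 12, PAG6 and LOC110259249 were close to background. PAG6 had 3 counts or fewer in 9 of 10 Day 8 embryos and 19 counts (0.980 CPM) in d08_m_133. On Day 10 it had 4 to 26 counts, with a lowest level of 0.174, a median of 0.473 and a highest of 1.42 CPM in d10_f_317. All Day 10 embryos were thus above 3 counts, but the range overlapped that of Day 8 through d08_m_133. LOC110259249 had 0 to 4 counts in every embryo of both days, and no change is given for it.

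LOC100737419 and PPAG3 were already well above background on Day 8. LOC100737419 had a lowest level of 1.55, a median of 2.58 and a highest of 7.92 CPM on Day 8, and 4.05, 14.2 and 26.3 CPM on Day 10. PPAG3 had 2.39, 3.88 and 11.8 CPM on Day 8, and 3.81, 10.5 and 19.5 CPM on Day 10. The medians of these genes were higher on Day 10, and their ranges overlapped. d08_f_129 had the highest level of both genes on its day, and d10_f_315 on its own.

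From Day 8 to Day 10, LOC100737419 was the 1 glycoprotein called, where 9.88% of all 13103 genes were called higher and 4.2% lower. A call between days required an FDR under 0.001 in edgeR's quasi-likelihood test and a log2 fold change beyond 1. LOC100737419 rose by a log2 fold change of 1.95 (SE 0.32, adjusted p = 7.21e-06). PPAG3 differed by 1.12 (SE 0.33, adjusted p = 0.00495) and did not meet the FDR. The value for PAG6 was 1.86 (SE 0.79), given without a test. PAG6 was chosen by its rise from Day 10 and passed the filter on low counts only through Day 12. Without d08_f_129, its highest Day 8 embryo, PPAG3 was called, with a log2 fold change of 1.35 (SE 0.33, adjusted p = 0.000898). In the other 19 fits that left out 1 embryo PPAG3 was not called. Without d08_m_133 the value for PAG6 was 3.12 (SE 0.87), and with edgeR's robust GLM it was 2.80 (SE 0.47). The robust GLM called PPAG3 at 1.21 (SE 0.29, adjusted p = 9.03e-05), while 6 other settings, DESeq2 among them, did not.

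The 4 genes reached their highest levels on Day 12. PAG6 measured 979, 2021, 4679, 4021 and 4268 CPM in the female embryos d12_f_245, d12_f_271, d12_f_289, d12_f_297 and d12_f_299. It measured 3041, 2995, 16496, 7208 and 853 CPM in the male embryos d12_m_249, d12_m_275, d12_m_276, d12_m_286 and d12_m_307. d12_m_276 stood highest, at more than any other embryo by a wide gap, d12_m_307 and d12_f_245 stood lowest, and no Day 12 value overlapped any earlier one.

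LOC110259249 followed the same order at both ends except that d12_f_245 was its lowest embryo. It measured 20.5, 96.3, 306, 399 and 437 CPM in the females and 274, 290, 1434, 698 and 73.2 CPM in the males, in that order of embryos. The lowest Day 12 embryo was 104.9 times the highest Day 10 embryo for LOC110259249, and 601 times for PAG6.

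LOC100737419 and PPAG3 were spread over a narrower range on Day 12. LOC100737419 measured 1625, 3427, 3351, 2204 and 2952 CPM in the females and 2350, 2298, 4771, 3607 and 1370 CPM in the males, in the same order of embryos. PPAG3 measured 74.4, 187, 302, 150 and 178 CPM in the females and 117, 172, 297.4, 282 and 72.5 CPM in the males. d12_m_307 was the lowest embryo for both, and every Day 12 value lay above every Day 10 value, by 52.1 times at the closest pair for LOC100737419 and 3.72 times for PPAG3.

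**Figure D1:**
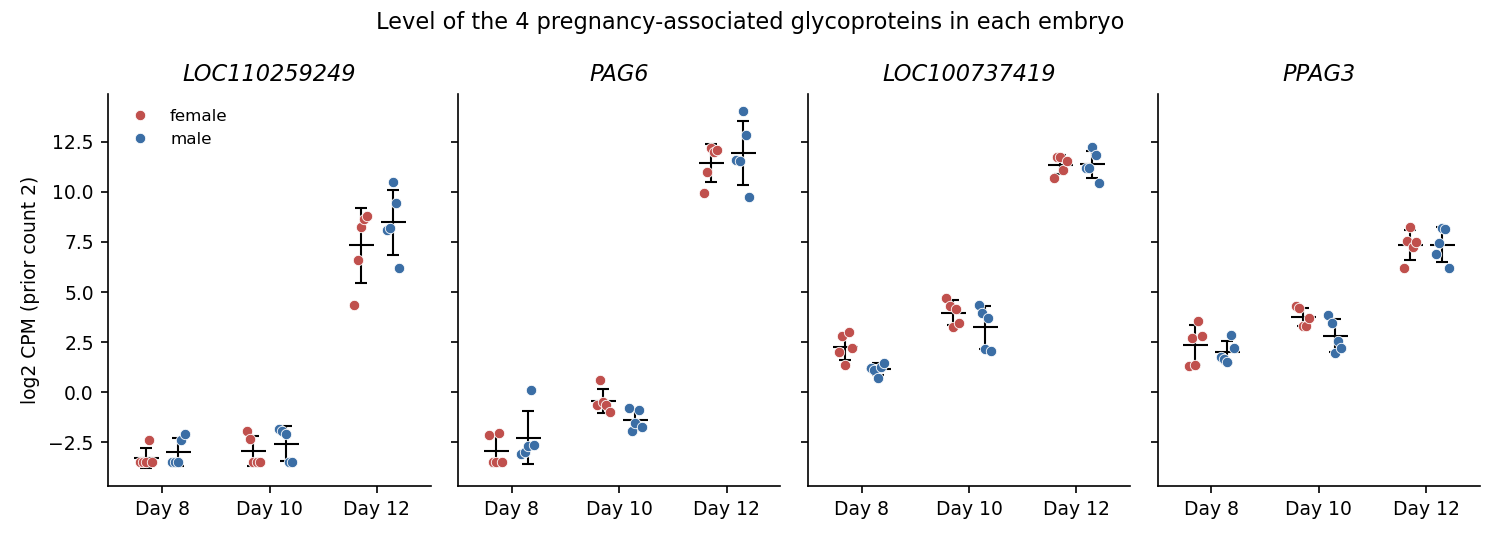
Each point is the level of a gene in 1 embryo (vertical axis, log2 CPM with a prior count of 2) on Days 8, 10 and 12, with females in red, males in blue, and bars for the mean and SD of 5 embryos. PAG6 and LOC110259249 sit near background until Day 12, while LOC100737419 and PPAG3 are above it from Day 8 on.

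From Day 10 to Day 12 the fitted log2 fold change was 13.18 (SE 0.67) for PAG6 and 12.24 (SE 0.75) for LOC110259249, given without a test as the genes were chosen on this contrast. The value for LOC110259249 rests on 17 reads over the 10 Day 10 embryos, against 101492 on Day 12, a ratio per scaled read of 5925 with an exact 95% interval from 3701 to 10172. For PAG6, 107 reads on Day 10 stood against 1139428, a ratio of 10569 (8746 to 12897). These intervals cover counting error only. LOC100737419 rose by 7.63 (SE 0.40, adjusted p = 1.26e-16) and PPAG3 by 4.07 (SE 0.35, adjusted p = 2.16e-11). Beside these calls stand the 14.9% of all genes called higher in this interval and the 8.39% called lower, with a median log2 fold change of 0.04 over all genes. Both intervals use the same Day 10 embryos.

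The rise on Day 12 was not called across the whole array. The first 4 loci, from LOC110259249 to LOC110259250, are in the Day 12 table but not in those of Days 8 and 10, so they passed the filter on low counts through the day on which they were high. For the unnamed loci among them, LOC100522849 and LOC110259250, the fitted log2 fold changes of 11.77 (SE 0.69) and 8.96 (SE 0.69) are therefore a description as well. Of the 8 loci in the tables of both days, LOC100737419 and PPAG3 were called higher and 0 of the 6 beyond PPAG3, in edgeR and in DESeq2 alike, a division drawn after these values were seen. Among all 11267 genes in both tables edgeR called 11.4% higher, so 0 of 6 does not set these loci apart. DESeq2 called 24.2% of all genes in either direction. Of the 6 beyond PPAG3, 2 had an unadjusted p under 0.05 in edgeR, as had 63.5% of all genes. LOC100523770, the first beyond PPAG3, fell by 1.25 on the log2 scale (SE 0.31, adjusted p = 0.000838), a call lost in 15 of the 20 fits that left out 1 embryo. The other 5 had log2 fold changes of 0.95, 0.42, 0.39, 0.05 and -0.07 in chromosome order and were not called, the values for LOC100524479 and LOC100524300 changing sign between settings.

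From Day 8 to Day 10, 0 of the 6 unnamed loci in the tables of both days were called in edgeR's quasi-likelihood test. Of all genes in both tables it called 8.1% higher and 3.53% lower. LOC100522849 and LOC110259250 are in neither table and were not called. Of all 8 unnamed loci, 3 had an unadjusted p under 0.05, as had 60.5% of all genes. DESeq2 called 2 of them higher, where it called 15.8% of all genes in either direction. LOC100523770 (1.09, SE 0.31, adjusted p = 0.00337) and LOC100523945 (1.24, SE 0.36, adjusted p = 0.00393) had changes of about the size of that of PPAG3. Beyond PPAG3, LOC100523770 had 5.63 to 31.7 CPM on Day 8, 11.6 to 38.1 on Day 10 and 2.98 to 23.9 on Day 12. Its Day 12 range overlapped both earlier ranges. The Day 12 ranges of LOC100737419 and PPAG3 lay above those of Day 10. So did those of PAG6 and LOC110259249, which were chosen by this rise. Those of LOC100522849 and LOC110259250, which passed the filter on low counts through Day 12, did as well. For these last 2 pairs of loci the gap is a description. How many of all genes have ranges that lie apart between these days was not counted.

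**Figure D2:**
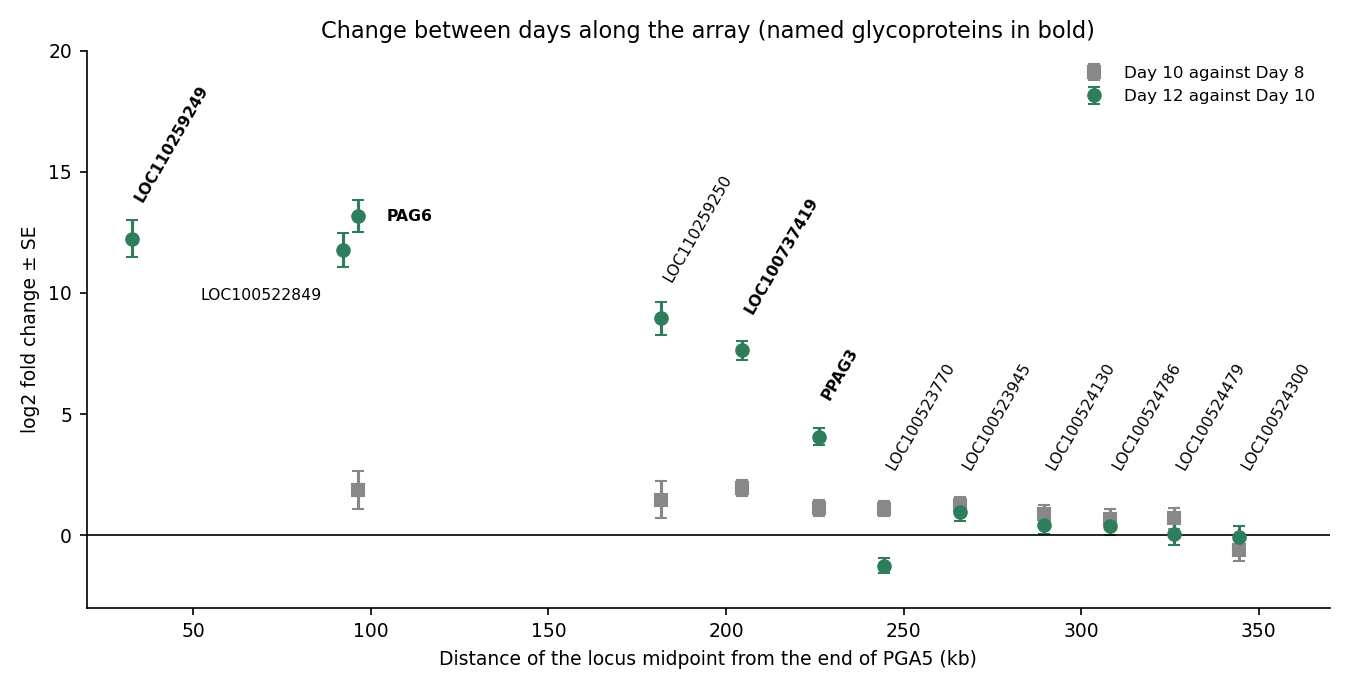
The log2 fold change (vertical axis, bars show the SE) of the 12 loci is plotted against the distance of each locus from the end of PGA5 in kb, for Day 10 against Day 8 in grey and Day 12 against Day 10 in green. The Day 12 change runs from 13.18 at PAG6 to 4.07 at PPAG3 and lies between -1.25 and 0.95 beyond it. The grey points of LOC110259249 and LOC100522849 are left out, as both genes were near background on both days.

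The part of the library taken by the array grew with the rise of the 4 genes. The 12 loci took 0.00601% ± 0.00284 of the counts on Day 8 (SD, n = 10), 0.0105% ± 0.00476 on Day 10 and 0.913% ± 0.617 on Day 12, with 2.44% in d12_m_276. Of the reads of the array, the 4 named glycoproteins made up 15.3% ± 2.84, then 22.3% ± 2.40 and, in Day 12 embryos, 90.2% ± 2.55. The 6 loci beyond PPAG3 went from 83.9% ± 3.01 to 76.8% ± 2.88 and 1.39% ± 0.954. The ranges of Day 12 did not overlap those of the earlier days for either share. This is a description, since PAG6 and LOC110259249 were chosen by their rise to Day 12. A rise of their share also lowers that of the other loci. As longer transcripts collect more reads, these shares compare a gene with itself across days and not 1 gene with another.

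The make-up of the Day 12 array differed between embryos. PAG6 took 46.1% ± 10.1 of its reads, from 31.8% in d12_m_307 to 63.0% in d12_m_276. LOC100737419 took 38.0% ± 12.9, from 18.2% in d12_m_276 to 57.2% in d12_f_245. The embryo with the most PAG6 was therefore the one in which LOC100737419 had its smallest share, although its own level there, 4771 CPM, was the highest of the day.

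**Figure D3:**
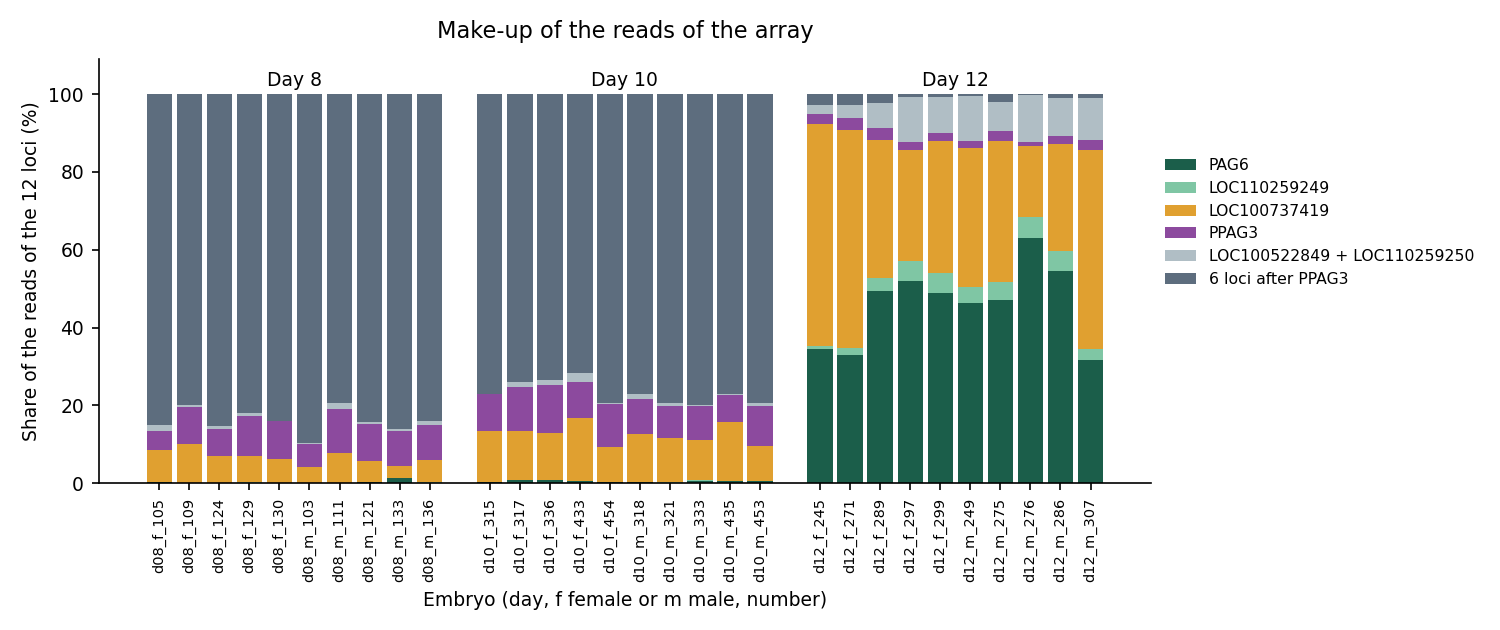
Each bar is 1 embryo (named by day, f for female or m for male, and number), divided by the share of the reads of the 12 loci in percent (vertical axis) that fell on each glycoprotein, on LOC100522849 and LOC110259250 together, and on the 6 loci beyond PPAG3. The last group holds most reads on Days 8 and 10 and at most 2.80% on Day 12.

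Ratios between members within an embryo showed the same shift. Reads of LOC100737419 over those of PPAG3 gave 0.326 to 1.67 in Day 8 embryos, 0.837 to 2.29 in Day 10 embryos and 11.104 to 21.9 in Day 12 embryos. The Day 12 values lay apart from all earlier ones. PAG6 over LOC110259249 on Day 12 was 9.77 to 21.0 in 9 embryos and 47.6 in d12_f_245, the embryo with the fewest counts. LOC100522849 over LOC110259249 stayed between 0.949 and 1.35 in all 10 embryos, a ratio near 1 at levels from 20.5 to 1434 CPM of LOC110259249. Whether these 2 loci share reads was not tested.

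Among the 10 Day 12 embryos the spread of PAG6 and LOC110259249 was wide for the transcriptome. The SD of log2 CPM was 1.27 for PAG6, larger than in 96.3% of the 11987 genes compared, and 1.76 for LOC110259249, larger than in 99.1%. LOC100737419 had an SD of 0.55 (67.0%) and PPAG3 of 0.75 (82.9%), beside a median of 0.43 over all genes. On Day 8 the SD of LOC100737419, 0.76, and of PPAG3, 0.78, exceeded those of 97.1% and 97.3% of the 11115 genes compared, whose median was 0.20.

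The members varied together across the Day 12 embryos. Over 10 embryos LOC110259249 and PAG6 had a Pearson r of 0.938 (permutation p = 0.0000500, adjusted p = 0.000400 over 8 pairs) and a Spearman rho of 0.939 (permutation p = 0.000270, adjusted p = 0.00216), and r was 0.942 without d12_f_245 and d12_m_276. LOC100737419 and PPAG3 had an r of 0.933 (permutation p = 0.000180, adjusted p = 0.000720) and a rho of 0.891 (permutation p = 0.000880, adjusted p = 0.00352), with r 0.902 without the 2 embryos farthest from the median. The other 4 pairs had r from 0.743 to 0.874, which became 0.511 to 0.819 without the 2 farthest embryos. LOC100737419 and PPAG3 were also correlated on Day 10 (r = 0.871, permutation p = 0.00142, adjusted p = 0.00227, rho = 0.867, permutation p = 0.00232, adjusted p = 0.00619, r without 2 embryos 0.630). On Day 8 the relation rested on d08_f_129 and d08_f_109, as r fell from 0.687 (permutation p = 0.0306, adjusted p = 0.0306) to 0.326 without them and rho was 0.479 (permutation p = 0.166, adjusted p = 0.166). All values of an embryo come from 1 library, which pairs of genes share. Correlations of this size are not particular to the members. LOC100522849, at r = 0.939 with PAG6, was only 57th among 11983 genes, the members left out. What littermates or shared reads add to these values was not tested.

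The first 4 loci of the array and the 6 beyond PPAG3 varied apart from each other on Day 12, in a grouping made after the values were seen and given without a test. Pairs among LOC110259249, PAG6, LOC100522849 and LOC110259250 had a median r of 0.939 and pairs among the last 6 loci of 0.891. Across the groups the median was 0.0815, from -0.316 to 0.359. d12_f_289 had the highest level of LOC100524479, 37.0 CPM against 4.55 CPM in d12_m_276, the embryo highest in PAG6. LOC100737419 and PPAG3, which lie between the groups, were positively correlated with both.

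**Figure D4:**
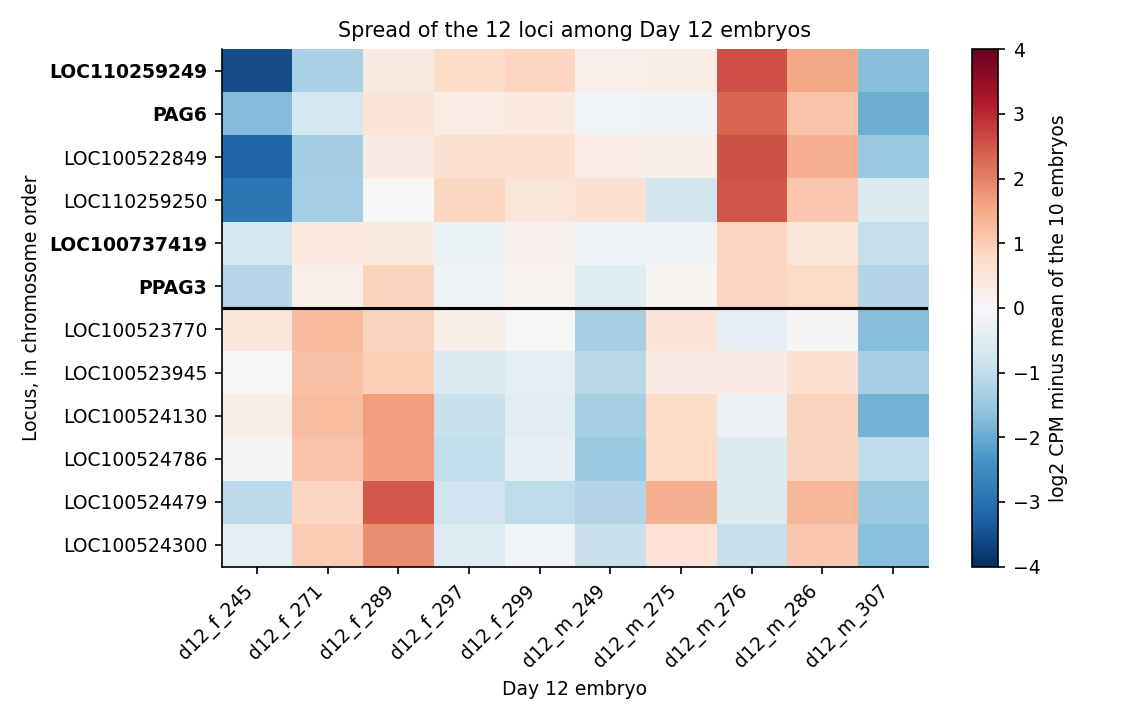
Colour gives the log2 CPM of each of the 12 loci (rows, in chromosome order, glycoproteins in bold) in each Day 12 embryo (columns) minus the mean of the 10 embryos. Above the black line, drawn after PPAG3, d12_m_276 is high and d12_f_245 low for the first 4 loci, while below the line d12_f_271 and d12_f_289 are high.

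**Figure D5:**
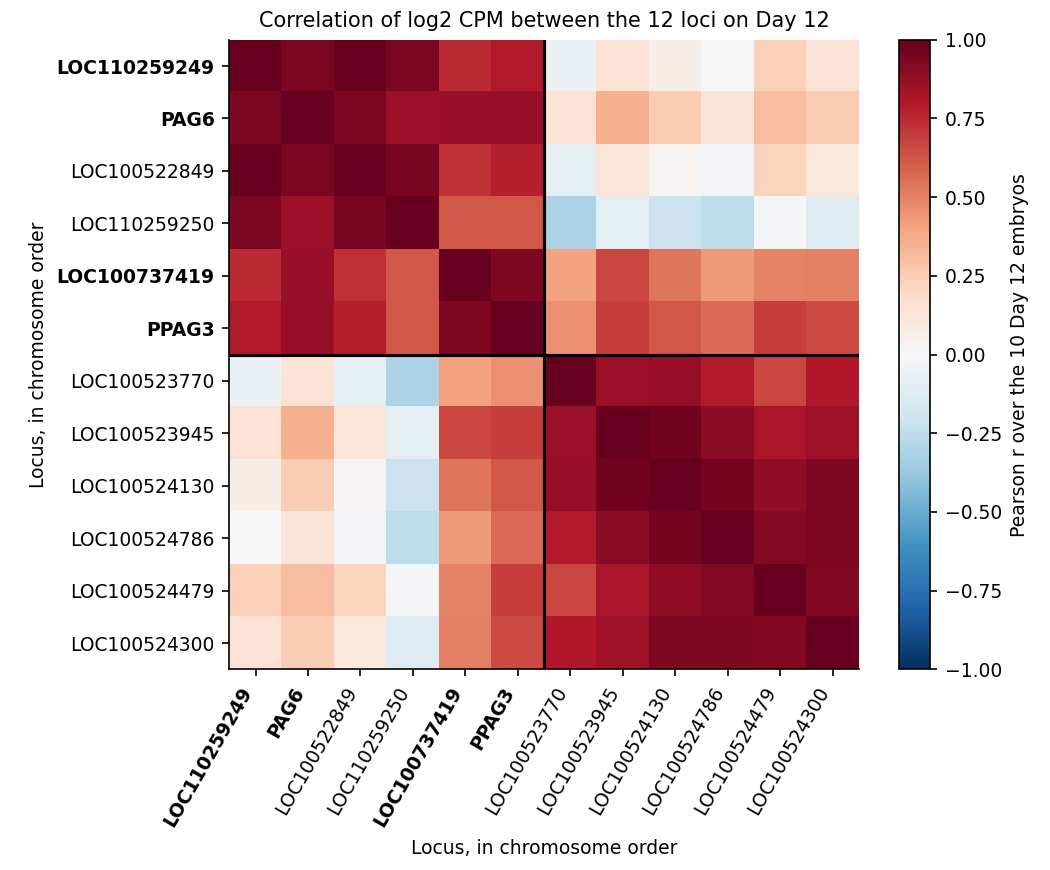
Colour gives the Pearson r of log2 CPM over the 10 Day 12 embryos for each pair of the 12 loci, in chromosome order, with the black lines drawn after PPAG3. The first 4 loci and the last 6 form separate blocks, with a median r of 0.0815 between them.

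Marker genes of the cell types were set beside this spread, and their part in it was not tested. All 10 trophectoderm markers were in the table and above 3 counts in at least 1 embryo of each day, and their summed level ran from 21591 to 25970 CPM on Day 8, 35152 to 52199 on Day 10 and 9344 to 27277 on Day 12. From Day 10 to Day 12, 2 of the 10 were called higher, the transcription factors GATA3 (log2 fold change 1.23) and TFAP2A (1.04), and 5 lower, the keratins KRT18 (-2.21) and KRT8 (-1.26), which dominate the sum, DAB2 (-1.58), CDX2 (-1.42) and TEAD4 (-1.20). Of all genes 14.9% were called higher and 8.39% lower. The other 3 markers, GATA2 (0.38), TFAP2C (0.0032) and ELF5 (-0.44), were not called. On Day 12 the sum was 13025 CPM in d12_m_276, 19454 in d12_f_245 and 19538 in d12_m_307, and it was highest in d12_f_271. As the keratins dominate it, the sum is not a measure of the number of trophectoderm cells. Markers of the maternal endometrium (4 of 5 in the table) summed to 0.792 to 2.85, 1.26 to 12.2 and 6.03 to 27.2 CPM on the 3 days, with MUC4 the highest of them on Day 12, and those of blood (2 of 5) to 0.0528 to 1.32, 0.772 to 8.06 and 1.44 to 10.6 CPM. Both sums were lowest in d12_m_276 and highest in d12_m_307 on Day 12. The 4 of 5 epiblast markers in the table summed to 28.6 to 47.1, 42.0 to 690 and 278 to 1222 CPM on the 3 days. SOX2 and PRDM14 were at 0 or 1 count in all Day 12 embryos and POU5F1 at 0.611 to 4.05 CPM, while DPPA5, which makes up nearly all of the Day 12 sum, had 24.5 to 678 CPM on Day 10 and 277 to 1220 CPM on Day 12 (log2 fold change 1.45, adjusted p = 0.00459, not called). Finally, 4 of 5 hypoblast markers were in the table, at 132 to 1164 CPM in sum.

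The question of whether female and male embryos differed was asked within each day. Only LOC100737419 and PPAG3 were in the tables of Days 8 and 10, and all 4 members in that of Day 12. At an FDR of 0.05 in edgeR's quasi-likelihood test 0 glycoproteins were called on any day. Of all genes the test called 0.658% in the Day 8 table, 0.223% in the Day 10 table and 0.123% in the Day 12 table. An unadjusted p under 0.05 was found for 1, 0 and 0 glycoproteins in turn, and DESeq2 called 1, 0 and 0, the 1 being LOC100737419, chosen on this contrast. Among all genes, 524 of 11405 on Day 8 and 2775 of 12220 on Day 12 had an unadjusted p under 0.05 in edgeR. Fewer had one on Day 10. DESeq2 called more of all genes than edgeR on each day, with 53 on Day 10 and 168 on Day 12.

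On Day 8, LOC100737419 measured 3.99, 6.80, 2.44, 7.92 and 4.58 CPM in d08_f_105, d08_f_109, d08_f_124, d08_f_129 and d08_f_130, and 2.22, 2.09, 1.55, 2.32 and 2.71 CPM in d08_m_103, d08_m_111, d08_m_121, d08_m_133 and d08_m_136. d08_f_124 lay within the male range and the other females above it. The log2 fold change, female over male, was 1.22 (SE 0.29), given without a test. For PPAG3 it was 0.53 (SE 0.43, adjusted p = 0.999). On Day 10 the value was 0.55 (SE 0.46) for LOC100737419 and 0.82 (SE 0.38) for PPAG3, both with an adjusted p of 0.99997.

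On Day 12 the sexes overlapped for all 4 genes. The log2 fold change of females over males was -1.11 (SE 0.81, adjusted p = 0.399) for LOC110259249 and -0.91 (SE 0.66, adjusted p = 0.401) for PAG6. Much of both values lay with d12_m_276, without which they were -0.39 and -0.12. LOC100737419 and PPAG3 gave -0.05 each (SE 0.32 and 0.41, adjusted p = 0.933 and 0.9502). On Day 12 sex differences of this size in PAG6 could not be detected with 5 embryos a sex and an SE of 0.66.

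The sex difference was also compared between days. For LOC100737419 the log2 value of Day 12 minus that of Day 8 was -1.30 (SE 0.56), given without a test as it includes the Day 8 difference on which the gene was chosen. PAG6, which the Day 10 table leaves out, measured 0.565, 1.42, 0.623, 0.545 and 0.412 CPM in the Day 10 females and 0.490, 0.174, 0.259, 0.456 and 0.217 CPM in the males. The ranges overlapped, and the value of Day 12 minus that of Day 10 was -2.11 (SE 1.03). It is given without a test, as PAG6 passed the filter on low counts only through Day 12. In the 3 interaction tests between days edgeR's quasi-likelihood test called 0 of the 12 loci and 0% of all genes each time. The 12 include PAG6, LOC110259249, LOC100522849 and LOC110259250, all near background before Day 12, for which these tests decide little. DESeq2 called 0 of the 12 loci as well, and its calls among all genes were 1 for Day 10 minus Day 8, 196 higher and 90 lower for Day 12 minus Day 8, and 0 for Day 12 minus Day 10, while 100, 2863 and 2473 genes had an unadjusted p under 0.05 in edgeR.

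The genes with levels most like those of PAG6 over the 30 embryos, the members left out, were ENTPD8, an ectonucleotidase (r = 0.989), the fucosyltransferase FUT9 (0.989), LOC100522849 (0.987), the galactosyltransferase B4GALT1 (0.987) and LEP, the gene of leptin (0.987). These values describe the step between days that the genes share, among 11841 genes with a mean of at least 1 CPM. FUT9 went from at most 0.170 CPM on Day 10 to 43.4 to 579 CPM on Day 12, and ENTPD8 from 0.364 to 1.29 CPM to 88.3 to 983 CPM. B4GALT1 was already at 71.4 to 95.3 CPM on Day 10 and reached 324 to 1016 CPM.

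Over the 10 Day 12 embryos alone, where the step between days plays no part, the closest genes were the kinases PAK6 (r = 0.986) and PAK1 (0.977), RELL1 (0.985), the oxysterol receptor GPR183 (0.977) and the zinc finger gene ZNF385A (0.977). PAK1 had 87.9 to 119 CPM on Day 10 and 71.4 to 136.4 CPM on Day 12, so its likeness to PAG6 lay in the order of embryos and not in a step between days. LOC100522849 was 57th in this list (r = 0.939) and LOC110259250 was at position 332 (0.859). With Spearman's rho in place of r, 0 of the 5 closest genes over 30 embryos and 1 of 5 over the Day 12 embryos were the same.

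Other aspartic proteases were counted beside the glycoproteins, with no test of the difference. Of 13 listed genes in the table, 11 are in the tables of both Day 10 and Day 12, and of these 3 were called higher and 0 lower, the median log2 fold change being 0.49. Of all 11267 genes found on both days 11.4% were called higher and 7.22% lower, with a median of 0.01. The 3 were the beta-secretase BACE1 (log2 fold change 2.05), its relative BACE2 (1.42) and the napsin gene NAPSA (1.26). The pepsinogens PGA5 and PGC are in the Day 12 table but not in that of Day 10, and their values are a description. PGA5, the neighbour of the array, had 2 reads over the 10 Day 10 embryos against 216 on Day 12, a ratio per scaled read of 107 (exact 95% interval 29.3 to 891). That interval covers counting error only. Both Day 10 reads came from d10_f_336, and Day 12 ran from 0 CPM in d12_f_245 to 3.41 CPM, so the ranges overlapped. PGC had at most 0.222 CPM on Day 10 and 0.723 to 2.99 CPM on Day 12. From Day 8 to Day 10, PGA5 and PGC are in neither table, and of the 11 genes in both, 0 were called higher and 1 lower. Of all 11046 genes found on both days 8.1% were called higher and 3.53% lower. The 1 was the lysosomal protease CTSD, which fell by 1.59 (SE 0.21, adjusted p = 2.47e-07), while LOC100737419 rose. Over the 13, DESeq2 gave these counts too, and 4 of the 13 had an unadjusted p under 0.05 in edgeR, as had 60.5% of all genes.

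The 16 other genes of the table within 500000 bp of a member, PGA5 left out, were called in both directions. Of the 14 in the tables of both Day 10 and Day 12, 1 was called higher (MYRF, log2 fold change 2.93) and 2 lower (DAGLA, -3.06, and TMEM109, -1.54), that is 7.14% and 14.3% against 11.4% and 7.22% of all genes found on both days, with a median of 0.07. VWCE, in the Day 12 table and not that of Day 10, had a log2 fold change of 2.40, and SYT7, in the Day 10 table and not that of Day 12, one of -2.56. From Day 8 to Day 10, 2 of the 15 in both tables were called higher (TMEM132A, 1.36, and DAGLA, 1.15) and 2 lower (SYT7, -1.89, and CCDC86, -1.03), or 13.3% each way against 8.1% and 3.53% of all genes in both tables.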

How the data were processed

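Libraries were prepared from mRNA with a stranded kit, 1 whole embryo each. The deposited tables hold raw read counts per NCBI gene identifier, which the authors made by trimming the reads, mapping them to Sscrofa11.1 with its NCBI annotation and removing genes under a CPM cutoff. The counting tool, its strand setting and the treatment of reads that fit several places are not given in the sources used here, and per the labels edgeR was used. Tables of 13103 genes (30 embryos) and of 11405, 11675 and 12220 genes (Days 8, 10 and 12) were used, the first for comparisons between days and the others between sexes.

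Members, lists and tests were chosen with earlier results of these data known. The rule for named genes took every glycoprotein, every gene within 500000 bp, every called gene of a list of 19 aspartic proteases, and the 5 genes most correlated with PAG6 over 30 and over 10 embryos. Names and positions came from the NCBI gene table, and sequences were not used here.

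Tests used R 4.3.3 with edgeR 4.0.16 (TMM, glmQLFit robust, 1 fit with 3 day groups, 6 groups for interactions) and limma 3.58.1, DESeq2 1.42.0 as an alternative, and, under Python 3.11.15, scipy 1.17.1, pandas 2.3.3, numpy 2.4.6 and, for plots, matplotlib 3.10.9. Adjusted p-values are Benjamini-Hochberg values over all genes of a table. Dividing a log2 fold change by the square root of F gave its SE. Log2 CPM used a prior count of 2, and correlations 100000 permutations, two-sided. On simulated counts with 200 changed genes the test between Day 10 and Day 12 recovered 95.5% (log2 change of 3), with 0 false calls. The tests between sexes recovered 97.5%, 91% and 81.5% on Days 8, 10 and 12 (log2 change of 2), with 14, 5 and 7 false calls. That change is larger than any sex difference within a day given here, and litters were not simulated. In 60 pairs of embryos of 1 group the counts differed beyond sampling noise.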

Additional observations from a re-analysis of the deposited data

Results flagged for a closer look

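Of 108 sets of embryos (12 loci by day, and by day and sex), 14 held an embryo whose gap to its nearest neighbour, divided by the range, exceeded Dixon's limit, 0.466 for 10 embryos and 0.71 for 5. For normally distributed values chance alone flags about 1 in 20, and loci that vary together are flagged together. The gaps were taken in CPM and not on a log scale, and each flagged embryo was the highest of its set. The sets by day also hold the embryos of the sets by day and sex.

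Among the glycoproteins, d12_m_276 stood apart for PAG6 (gap 0.594 of the range) and LOC110259249 (0.521), and for the unnamed loci LOC100522849 (0.55) and LOC110259250 (0.647). On Day 8, d08_m_133 stood apart for PAG6 among all embryos (0.838) and among males (0.951), with 0.980 CPM against at most 0.158 CPM in the others. On Day 10, d10_f_317 stood apart for PAG6 among all embryos (0.639) and among females (0.79), with 1.42 CPM against at most 0.623 CPM. PPAG3 was far higher in d08_f_129 (0.497), with 11.8 CPM against at most 7.12 CPM, an embryo that also stood apart for LOC100523770 (0.631) and LOC100524300 (0.486). On Day 12, d12_f_289 stood apart for LOC100524479 among all embryos (0.547) and among females (0.732), and for LOC100524300 (0.466).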

How the results depend on the processing

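Of the 12 loci, 1 was called from Day 8 to Day 10, against 3 with DESeq2, 5 with the robust GLM and 1 to 3 with 1 embryo left out (3 without d08_f_129). LOC100737419 was called in all of these fits. The 5 with the robust GLM hold PAG6, which passed the filter on low counts only through Day 12. For the sexes on Day 8, 0 loci were called, against 1 with DESeq2, 1 with the robust GLM and 0 to 1 with 1 embryo left out (1 without d08_f_124), each time LOC100737419, which was chosen on this contrast. From Day 10 to Day 12, 7 loci were called and 6 to 7 with 1 embryo left out. That count holds PAG6 and LOC110259249, chosen on this contrast, and LOC100522849 and LOC110259250, which passed the filter on low counts through Day 12. Counting only the 8 loci in the tables of both days, a choice made after seeing the data, left 3: LOC100737419 and PPAG3, called in every fit, and LOC100523770. The Day 12 sex difference of LOC100737419 was 0.0075 with the robust GLM and ran from -0.2264 to 0.1999 with 1 embryo left out, and that of PPAG3 from -0.3107 to 0.178. Over all genes, 15 were called between the sexes on Day 12, against 168 with DESeq2, 57 higher and 44 lower with the robust GLM and 2658 in 1 fit of all 30 embryos. On Day 8, 75 were called, against 156 with the robust GLM and 36 in that fit. Library size alone in place of TMM moved the median log2 fold change of all genes from 0.03 to -0.15 (Day 10 against Day 8) and from 0.04 to 0.24 (Day 12 against Day 10), and left the 4 glycoproteins on their side of the threshold. Levels of PAG6 and LOC110259249 before Day 12 are limited by depth. The study took at least 1 female and 1 male embryo per sow at each stage. As the gilt of an embryo is not given, no analysis paired by litter was possible, and the sexes were compared unpaired. The causes of these changes were not tested.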
